A study of Mus musculus with 371 samples.

Results

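Transcripts of 7 genes that restrain growth or shorten the life of mRNAs, Zfp36, Zfp36l1, Zfp36l2, Btg1, Btg2, Pdcd4 and Txnip, were followed cell by cell in T cells taken from B16F10 melanomas. The genes were chosen by name, with their differences between groups and their relation to the number of detected genes already known, and all 7 were among the 23362 genes with a unique symbol in the table. Cells came from 4 sorted pools: CD4 cells of Il27ra knockout mice (KO CD4, 89 cells kept of 93), CD4 cells of wild-type mice (WT CD4, 85 of 94), CD8 cells of Il27ra knockout mice (KO CD8, 86 of 90) and CD8 cells of wild-type mice (WT CD8, 90 of 94). All mice were C57BL/6 and carried a B16F10 tumour, a transplantable mouse melanoma line, and the labels name no treatment beyond the tumour. The labels do not describe the knockout allele, and their protocol text names CD8 T cells only, so the CD4 sort is known from the sample titles. Each pool carries 1 name and the same number, 3, in its titles, so each pool is 1 sample, pool and genotype cannot be told apart, and no test between pools was made.

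The 3 ZFP36 proteins bind AU-rich elements of mRNAs through paired zinc fingers and bring in the CCR4-NOT complex, which removes the poly(A) tail and starts decay. BTG1 and BTG2 bind the deadenylase subunits of that complex, and in mouse T cells both are known to keep naive cells quiescent. ZFP36 restrains activated T cells, and ZFP36L1 and ZFP36L2 act together in lymphocyte development. PDCD4 inhibits the helicase eIF4A and so translation, and TXNIP binds thioredoxin and limits glucose uptake.

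Each value is a level in FPKM, which is per length and so can be set side by side between genes, and a gene was called detected in a cell at 1 FPKM or above. Cells with at least 1000 detected genes were kept, which left out 21 cells; the cell with the fewest detected genes among those kept had 1006, and the one with the most among those left out had 996. The median number of detected genes was 1868 in KO CD4, 1661 in WT CD4, 1955 in KO CD8 and 2148 in WT CD8 cells. From the spacing of low values, 1 sequenced fragment of a transcript of 2 kb was worth 0.993 to 1.04 FPKM in the median cell of the pools. Il27ra itself was detected in 50.6% of KO CD4, 50.6% of WT CD4, 53.5% of KO CD8 and 51.1% of WT CD8 cells; its value covers the whole gene and cannot check the genotype, so KO and WT are used as labels. The T cell list had all 8 of its genes found in the table at 20% of cells or more in every pool, Cd4 was at 0 in both CD8 pools, and 1 KO CD4 cell carried erythroid genes at a sum of 1.00366e+06 FPKM. The lineage check was less clean in the other direction. Cd8b1 was detected in 21.3% of KO CD4 and 24.7% of WT CD4 cells, and Cd8a in 1.12% and 2.35%. Foxp3 was detected in 4.65% of KO CD8 cells and in 0% of WT CD8 cells. At least 2 melanoma markers were detected in 12.4% of KO CD4, 17.6% of WT CD4, 17.4% of KO CD8 and 24.4% of WT CD8 cells. Of the 7 melanoma markers, only Tyr was found in 20% of cells or more. It was detected in 97.8% of KO CD4, 95.3% of WT CD4, 96.5% of KO CD8 and 100% of WT CD8 cells. The highest share of another marker was 15.1%, of Pmel in KO CD8 cells. In most cells a count of 2 therefore needed only 1 marker beside Tyr. The same count decided which cells were left out as carrying markers of other cell types. Median summed melanoma levels were 5.37 FPKM in KO CD4, 6.4 in WT CD4, 7.7 in KO CD8 and 7.81 in WT CD8 cells.

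The genes lie on 7 chromosomes (mm10, GENCODE M21). Zfp36 is at chr7:28376784-28380253, Zfp36l1 at chr12:80107754-80113013, Zfp36l2 at chr17:84183931-84187947 and Btg2 at chr1:134075170-134079120, all on the minus strand. Btg1 is at chr10:96617006-96622809, Pdcd4 at chr19:53892231-53929860 and Txnip at chr3:96557957-96561883, all on the plus strand. RefSeq promoter sequences (build GRCm38.p6, the assembly of mm10) were given for 6 of the 7, all but Zfp36l2. The 250 bases before the start site are shown for Btg1, Btg2 and Txnip, because both BTG genes and Txnip had motifs of factors tied to quiescence, stimulation or glucose; capitals mark the motif matches.
Btg1 (chr10:96616751-96617000, plus strand): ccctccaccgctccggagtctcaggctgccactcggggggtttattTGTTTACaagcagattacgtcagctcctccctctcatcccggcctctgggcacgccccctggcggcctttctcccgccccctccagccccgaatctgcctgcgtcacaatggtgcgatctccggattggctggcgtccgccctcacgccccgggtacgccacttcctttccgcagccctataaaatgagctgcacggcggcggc
Btg2 (chr1:134079156-134079405, minus strand): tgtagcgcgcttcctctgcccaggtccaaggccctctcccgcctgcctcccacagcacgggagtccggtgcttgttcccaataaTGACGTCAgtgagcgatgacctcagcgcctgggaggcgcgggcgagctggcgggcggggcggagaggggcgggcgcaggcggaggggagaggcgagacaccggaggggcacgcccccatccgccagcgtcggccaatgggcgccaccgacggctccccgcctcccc
Txnip (chr3:96557707-96557956, plus strand): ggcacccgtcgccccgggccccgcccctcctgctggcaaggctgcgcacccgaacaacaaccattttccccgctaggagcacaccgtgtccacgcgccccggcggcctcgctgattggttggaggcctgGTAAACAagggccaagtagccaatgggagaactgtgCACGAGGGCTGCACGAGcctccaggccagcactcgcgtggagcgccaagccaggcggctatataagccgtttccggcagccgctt
The motifs were picked with these sequences in view and searched on both strands: TGTTTAC, the core of FOXO sites; TGACGTCA, the cyclic AMP response element; and CACGNG found again after 5 further bases, a pair of E-boxes of the kind that carbohydrate response elements hold. The FOXO core stood in the windows of Btg1 and Txnip, and was found in 3.17% of 32851 promoter windows of the same length. The cyclic AMP element stood in that of Btg2 and was found in 1.55% of windows. The paired E-box stood in that of Txnip, 85 to 69 bases before the start, and was found in 15 windows, 0.0457% of all. No 2 of these matches overlapped, and a match is a description of letters, not of binding.

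No kept cell lacked all 7, and the median cell held 5 of them in each pool. At least 5 were detected in 68.5% of KO CD4 and 55.3% of WT CD4 cells, and in 70.9% of KO CD8 and 68.9% of WT CD8 cells. Btg1 and Pdcd4 were the most widely detected in KO CD4, KO CD8 and WT CD8 cells, and Zfp36l1 in WT CD4 cells, at 87.1% against 83.5% for each of Btg1 and Pdcd4. Txnip was detected in 34.1% to 60.5% of cells, and cells that held it had median levels of 168.73 to 343.34 FPKM over the pools.

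**Figure D1:**
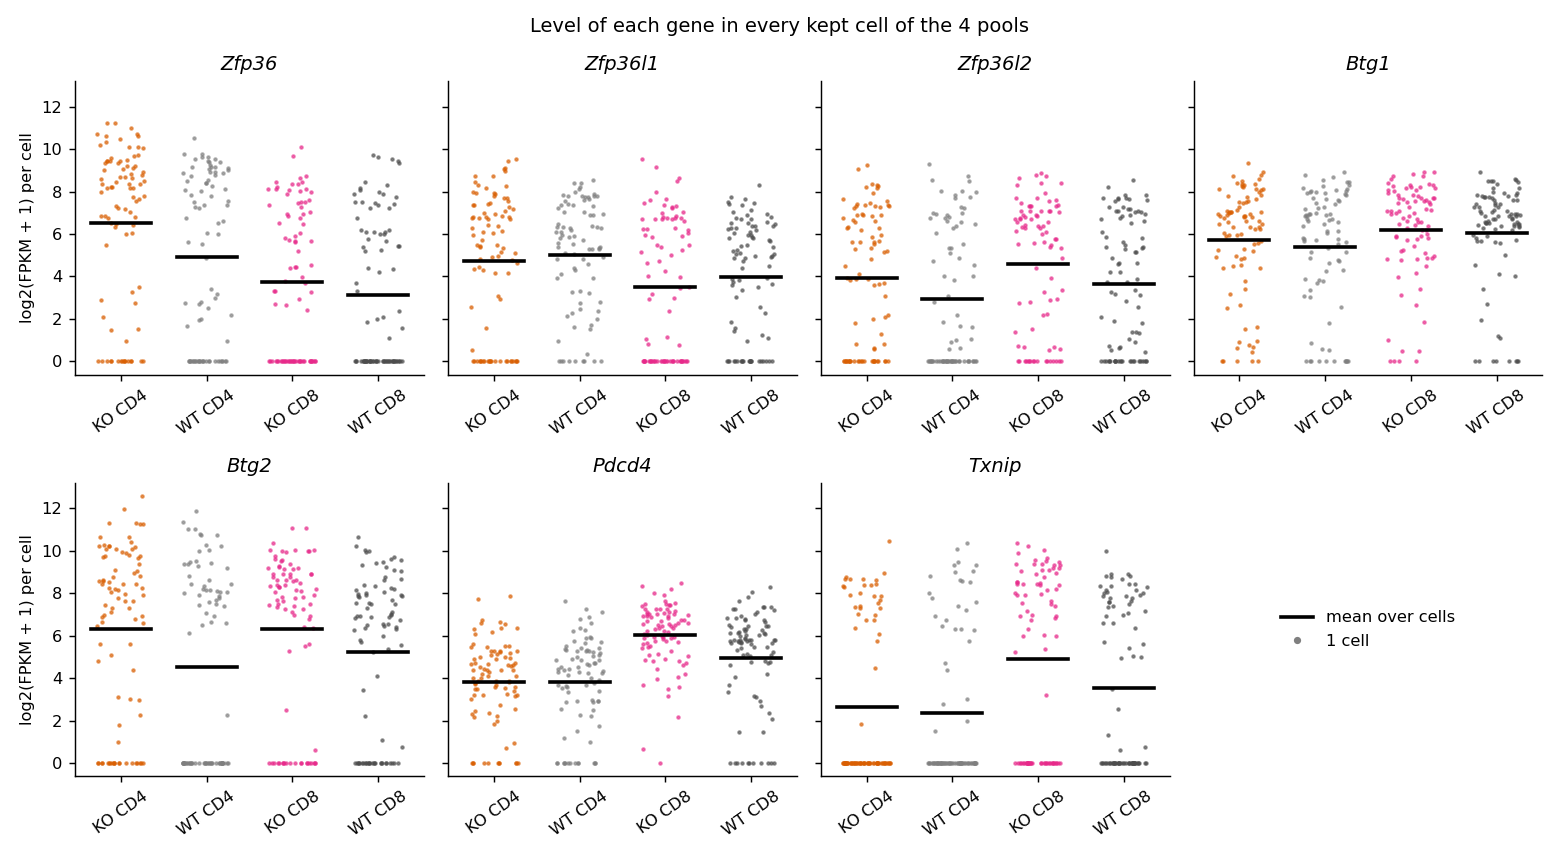
Level of each gene, as log2(FPKM + 1) on the vertical axis, in every kept cell of the KO CD4, WT CD4, KO CD8 and WT CD8 pools; each point is 1 cell and the black line is the mean over cells. Pdcd4 forms a single cloud in the KO CD8 pool, where 97.7% of cells held it, while Txnip and Btg2 divide into cells at 0 and cells at high levels.

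Zfp36, which encodes tristetraprolin, had its higher levels in the CD4 pools. In KO CD4 cells it ranged from 0 to 2428.85 FPKM with a median of 283.43 FPKM, in WT CD4 cells from 0 to 1480.14 with a median of 64.2, in KO CD8 cells from 0 to 1090.76 with a median of 12.5, and in WT CD8 cells from 0 to 835 with a median of 1.55. The ranges of all pools overlap, and both CD4 medians lay above both CD8 medians. Its mean of log2(FPKM + 1) was 6.50 ± 3.76 (SD over cells, here and below) in KO CD4, 4.90 ± 3.95 in WT CD4, 3.76 ± 3.49 in KO CD8 and 3.14 ± 3.50 in WT CD8 cells. It was detected in 80.9% of KO CD4 cells (exact Clopper-Pearson 95% interval 71.2% to 88.5%), 68.2% of WT CD4 (57.2% to 77.9%), 59.3% of KO CD8 (48.2% to 69.8%) and 51.1% of WT CD8 cells (40.3% to 61.8%). Only the KO CD4 and KO CD8 intervals were apart among the pairs compared, and in both sorts the KO pool had the higher mean, by 1.60 in CD4 and 0.62 in CD8 cells.

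Zfp36l1, also known as BRF1 or TIS11b, was the only one of the 7 whose mean log2 value was lower in the KO pool of both sorts, a direction that depended on the scale. It was detected in 73.03% of KO CD4 (62.6% to 81.9%) and 87.1% of WT CD4 cells (78.02% to 93.4%), and in 59.3% of KO CD8 (48.2% to 69.8%) and 74.4% of WT CD8 cells (64.2% to 83.1%). The cells that held it showed the other direction: their median level was 106.55 FPKM in KO CD4 and 64.2 in WT CD4 cells, and 74.4 in KO CD8 and 51.4 in WT CD8 cells. The difference of mean log2 values, -0.26 in CD4 and -0.47 in CD8 cells, changed sign when mean FPKM was compared instead, to 0.40 and 0.44. In CD4 cells it also turned to 0.034 with a pseudocount of 10 and to 0.041 without cells that carried markers of other cell types. Fewer cells of the KO pools were positive, at a higher level each. Over all cells it ranged up to 732.73 FPKM in KO CD4, 377.92 in WT CD4, 748.36 in KO CD8 and 311.15 in WT CD8 cells, with medians of 44.3, 46.5, 12.4 and 29.7 FPKM in the same order.

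Zfp36l2 was higher in the KO pool of both sorts. Its mean of log2(FPKM + 1) was 3.94 ± 3.18 in KO CD4 and 2.92 ± 3.27 in WT CD4 cells, and 4.59 ± 3.08 in KO CD8 and 3.66 ± 3.04 in WT CD8 cells. The median cell had 21.2 FPKM in KO CD4 and 0.99 in WT CD4, and 58.1 in KO CD8 and 13.1 in WT CD8, with highest values of 602.99, 623.54, 466.88 and 370.62 in that order of pools. In CD4 cells the difference of 1.03 lay in the share of positive cells, 66.3% of KO (55.5% to 75.97%) against 49.4% of WT cells (38.4% to 60.5%), since positive cells differed by 0.07. In CD8 cells the difference of 0.93 went with a level among positive cells higher by 0.69 in KO cells.

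Over the 4 pools together, Btg1 had the narrowest span of mean log2 values of the 7, from 5.38 in WT CD4 to 6.19 in KO CD8 cells. It was detected in 87.6% of KO CD4, 83.5% of WT CD4, 93.02% of KO CD8 and 91.1% of WT CD8 cells, with medians over all cells of 94.8, 83.2, 118.28 and 105.01 FPKM in the same order. Its highest values were 650.75 FPKM in KO CD4, 485.8 in WT CD4, 488.54 in KO CD8 and 477.11 in WT CD8 cells. The KO minus WT difference was 0.35 in CD4 and 0.13 in CD8 cells. In CD4 cells Pdcd4 at 0.01, Txnip at 0.24 and Zfp36l1 at -0.26 differed less. Each difference of Btg1 was smaller than its SD over cells of 2.31 to 2.81, as was so for every one of the 7 genes.

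Btg2, an early response gene, had the highest single values of the 7 in each pool, up to 6129.54 FPKM in KO CD4 and 3756.48 in WT CD4 cells. Its median was 219.27 FPKM in KO CD4 and 89.2 in WT CD4 cells, and 230.87 in KO CD8 and 100.49 in WT CD8 cells, where the highest values were 2155.75 and 1592.67. It was detected in 76.4% of KO CD4 cells (66.2% to 84.8%) and 52.9% of WT CD4 cells (41.8% to 63.9%). This was the only KO and WT pair of shares among the 7 genes whose intervals did not overlap. The KO pool's mean log2 value was higher by 1.76 in CD4 cells, although positive WT cells stood 0.35 above positive KO cells. In CD8 cells the shares were 75.6% in KO and 70% in WT cells, and the difference of 1.09 went with positive cells higher by 0.90 in KO cells.

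Pdcd4, the gene of the eIF4A inhibitor, had its higher levels in CD8 cells. It was detected in most cells everywhere, in 85.4% of KO CD4, 83.5% of WT CD4, 97.7% of KO CD8 and 87.8% of WT CD8 cells, but at medians of 16.4 and 19.5 FPKM in the KO and WT CD4 pools and 80.98 and 52.6 FPKM in the KO and WT CD8 pools. Its highest values were 233.31 in KO CD4, 194.93 in WT CD4, 354.58 in KO CD8 and 317.61 in WT CD8 cells. It was the member with the smallest spread in KO CD8 cells, at 6.03 ± 1.52, against 4.96 ± 2.31 in WT CD8 cells. KO minus WT was 1.07 in CD8 and 0.01 in CD4 cells.

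Txnip, the gene of the thioredoxin-binding protein, was the rarest of the 7 in CD4 cells. It was detected in 34.8% of KO CD4 (25.0% to 45.7%) and 34.1% of WT CD4 cells (24.2% to 45.2%), and in 60.5% of KO CD8 (49.3% to 70.8%) and 48.9% of WT CD8 cells (38.2% to 59.7%). The median cell was at 0 FPKM in both CD4 pools, at 116.97 FPKM in KO CD8 and at 0.63 in WT CD8, and the highest values were 1416.09 in KO CD4, 1330.7 in WT CD4, 1327.66 in KO CD8 and 1013.36 in WT CD8 cells. Positive cells had medians of 232.58 FPKM in KO CD4, 168.73 in WT CD4, 343.34 in KO CD8 and 207.68 in WT CD8. No KO CD8 cell that held Txnip had it below 5 FPKM, so positive cells of that pool lay far above the level of 1 fragment. KO minus WT was 1.40 in CD8 and 0.24 in CD4 cells.

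Between KO and WT pools, 6 of the 7 genes had a higher mean in the KO pool of each sort, all but Zfp36l1, and in CD4 cells 3 of those 6 changed sign under other settings. Of all measured genes, 66.1% were higher in KO CD4 cells and 21.3% in KO CD8 cells, and 5 of the 7 in CD4 and 6 of the 7 in CD8 cells lay above the median of all genes. For Pdcd4 the CD4 difference of 0.01 was negative under 8 of 10 alternatives, down to -0.31 with at least 2000 detected genes. For Txnip that of 0.24 was -0.13 with mean FPKM and -0.37 in cells whose lineage transcripts match the sort, and for Btg1 that of 0.35 was -0.54 without cells with Foxp3. The median difference over the 7 was 0.35 in CD4 cells, against 0.23 for all measured genes, and 0.93 in CD8 cells, against -0.40. A gene counted as measured when 20% of the cells of either pool held it, which gave 3864 genes in CD4 and 4686 in CD8 cells. In CD8 cells Btg2, Pdcd4 and Txnip, 3 of 7, reached a difference of 1, which 0.555% of measured genes did. In CD4 cells Zfp36, Zfp36l2 and Btg2 reached it, which 9.91% of measured genes did. These contrasts were known when the genes were chosen, so nothing is read from those counts. Relative to the median of all genes, Zfp36l1 in CD8 cells was at -0.07 and Txnip at 1.80. When cells were given weights that evened out detected genes between the CD8 pools, the differences were 1.24 for Txnip, 1.08 for Btg2, 0.90 for Pdcd4, 0.67 for Zfp36, 0.62 for Zfp36l2, 0.0087 for Btg1 and -0.028 for Zfp36l1, against -0.16 for all genes.

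**Figure D2:**
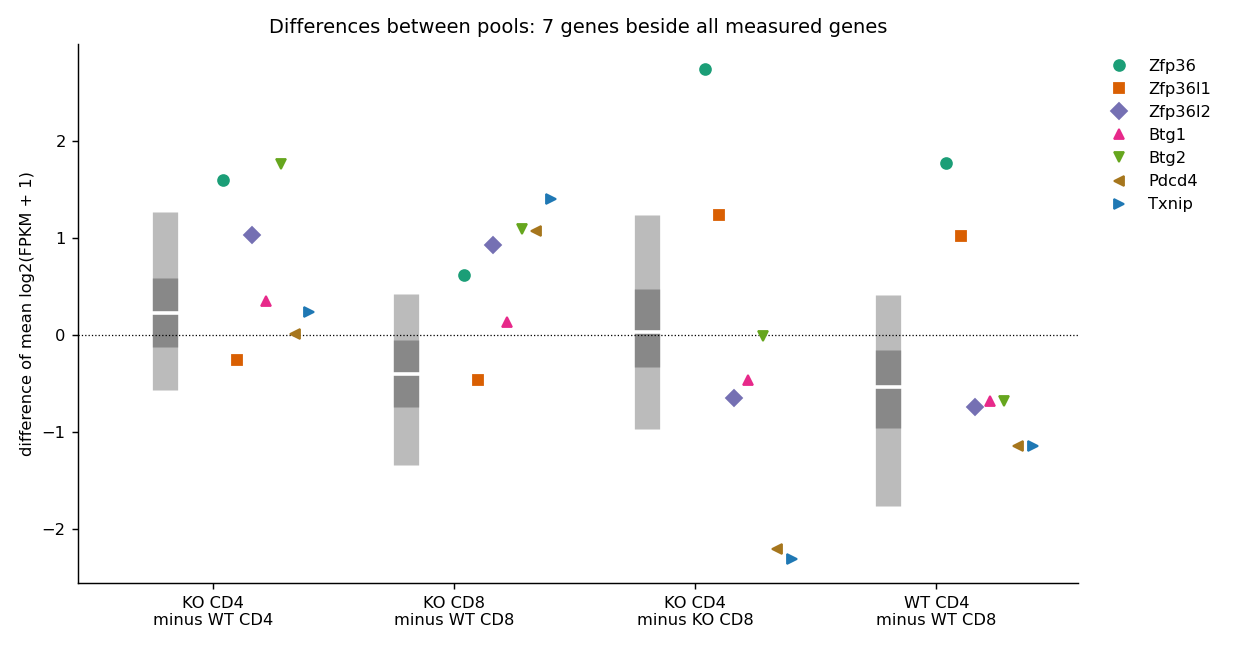
Difference of mean log2(FPKM + 1), vertical axis, for the 7 genes (symbols) in 4 comparisons of pools; beside them the light bar spans the 5th to 95th percentile of all measured genes, the dark bar the 25th to 75th, and the white line is the median. Txnip stands at 1.40 in KO CD8 minus WT CD8, where the median of all genes is -0.40, and Zfp36 at 2.74 in KO CD4 minus KO CD8.

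Both CD4 pools carry the mark p2 in their titles and both CD8 pools the mark p1, whose meaning the labels do not give, so sort and that mark cannot be told apart in the values that follow. In both genotypes Zfp36 and Zfp36l1 were higher in CD4 cells, by 2.74 and 1.23 in KO and by 1.77 and 1.02 in WT cells, although Zfp36l1 in WT cells was at -0.016 without cells with Foxp3. Pdcd4 and Txnip were lower in CD4 cells, by differences of -2.20 and -2.31 in KO and -1.14 and -1.15 in WT cells. When mean FPKM was compared in WT cells, Txnip was at -0.12 and Pdcd4 at -1.09. In KO cells 2 of the 7 reached a difference of 1, as did 8.24% of 3956 measured genes, and 2 reached -1, as did 4.55%. In WT cells the same count of 2 reached 1, as did 1.54% of 4729 measured genes, and 2 reached -1, as did 23.4%. All measured genes had a median of 0.03 in KO but -0.53 in WT cells, so that relative to it Pdcd4 stood at -2.23 in KO and -0.61 in WT cells. For Txnip the shares of 34.8% of KO CD4 and 60.5% of KO CD8 cells had intervals apart. Zfp36l2, Btg1 and Btg2 differed by -0.75 to -0.02 in both genotypes, and in KO cells Zfp36l2 and Btg1 stayed negative under all 10 alternatives. With mean FPKM, Btg2 was at 0.62 in KO and 0.72 in WT cells and Zfp36l2 at 0.039 in WT cells, and without cells with Foxp3, Btg1 was at 0.63 in WT cells.

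Regulatory T cells are marked by the factor Foxp3, and the 7 genes differed between CD4 cells with and without its transcript. Foxp3 was detected in 35 of 89 KO CD4 and 46 of 85 WT CD4 cells. Zfp36l1 was higher in cells with Foxp3, at 6.20 ± 2.75 with and 3.78 ± 3.20 without it in the KO pool, and at 5.87 ± 2.17 with and 3.95 ± 2.74 without it in the WT pool. The other 6 genes were lower in cells with Foxp3 in both pools, except that Txnip in WT cells was at 0.19 among cells with at least 2000 detected genes, 19 with and 6 without Foxp3. Cells with Foxp3 had more detected genes, a median of 2152 with and 1746.5 without Foxp3 in the KO pool, and 1883.5 with and 1547 without in the WT pool. The part of detected genes in these differences was not tested. The typical measured gene was higher in cells with Foxp3, by a median of 0.60 in the KO and 0.42 in the WT pool.

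Btg2 showed the widest gap of the 7 in the WT pool, and Zfp36l1, at 2.42, in the KO pool. Among WT CD4 cells it was detected in 34.8% of cells with Foxp3 and 74.4% of cells without it, with medians of 0 and 286.97 FPKM. The difference was -3.80 in the WT and -1.51 in the KO pool. Btg1 differed by -2.41 in WT and -1.08 in KO cells, Pdcd4 by -1.36 and -1.34, Zfp36l2 by -1.23 and -1.46, Txnip by -1.23 and -1.18, and Zfp36 by -0.96 and -0.87. A difference of -1 or below was reached by 5 of the 7 in each pool, and by 2.35% of 4849 measured genes in KO and 4.81% of 3850 in WT cells. A difference of 1 or above was reached by Zfp36l1 alone among the 7, and by 30% of measured genes in KO and 23.9% in WT cells. The split of these cells was made after seeing the data, and cells of 1 pool are not replicates.

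**Figure D3:**
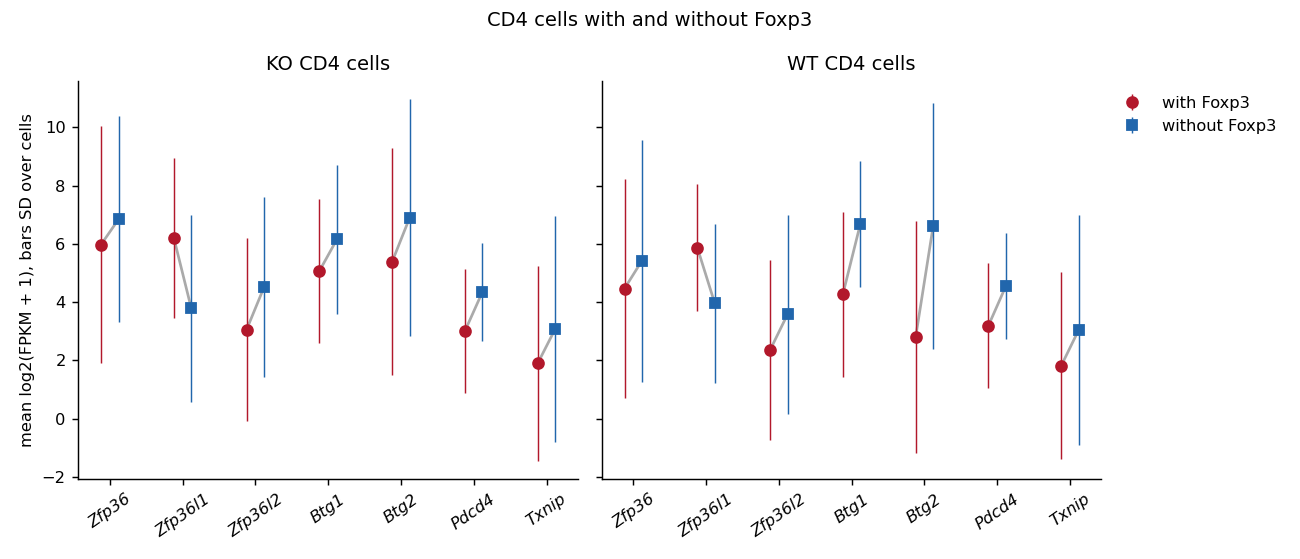
Mean log2(FPKM + 1), vertical axis, of the 7 genes in CD4 cells with Foxp3 (red circles) and without Foxp3 (blue squares), in the KO pool on the left and the WT pool on the right; bars are SD over cells. Zfp36l1 is higher with Foxp3 in both pools and the other 6 are lower (Txnip in the WT pool was at 0.19 among cells with at least 2000 detected genes), and the SDs overlap.

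The share of cells with Foxp3 differed between the pools, so the KO minus WT values of CD4 cells were also taken without those cells. Btg2 then differed by 0.29, against 1.76 among all CD4 cells, and Btg1 by -0.54, against 0.35. Among cells with Foxp3, Btg2 averaged 5.39 in KO and 2.80 in WT cells, and Btg1 averaged 5.07 and 4.27. The pools thus differed within cells with Foxp3 as well as in their share, and the part of each was not tested. Without cells with Foxp3 the median KO minus WT difference over the 7 was 0.036, against 0.35, and that of all measured genes was 0.21. In the same way, the WT CD4 minus WT CD8 difference of Zfp36l1 was -0.016 without cells with Foxp3, against 1.02, and that of Btg2 was 1.38, against -0.68. In CD8 cells leaving out cells with Foxp3 gave a median over the 7 of 1.00, against 0.93.

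CD8 cells with at least 2 of the receptor transcripts Pdcd1, Havcr2, Lag3 and Tigit numbered 23 of 86 in the KO and 39 of 90 in the WT pool. These receptors mark repeated stimulation or exhaustion. Zfp36 was lower in such cells in both pools, by differences of -1.51 in KO and -1.58 in WT cells. Txnip and Zfp36l2 went opposite ways in the pools, with 1.24 and 0.995 in KO but -1.11 and -1.08 in WT cells. Btg2, at 0.87 in KO and -0.16 in WT cells, and Zfp36l1, at -0.27 and 0.55, also differed in sign. In KO CD8 cells 1 of the 7, Txnip, reached a difference of 1, as did 14.5% of measured genes, and 1, Zfp36, reached -1, as did 6.2%. In WT CD8 cells 0 of the 7 reached 1, as did 42.6% of measured genes, and 4, Zfp36, Zfp36l2, Pdcd4 and Txnip, reached -1, as did 1.23%. WT cells with these receptors had a median of 3024 detected genes and the others 1993, while KO cells had 1984 with and 1950 without them, and the part of detected genes was not tested.

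When cells without the transcript were counted, most transcripts had higher levels in cells with more detected genes. The median rank correlation of the 7 genes was lower than that of all genes in each pool. Spearman's rho between a gene's level and detected genes had a median over all measured genes of 0.24 in KO CD4 (3540 genes, 89 cells), 0.26 in WT CD4 (3203 genes, 85 cells), 0.15 in KO CD8 (3283 genes, 86 cells) and 0.27 in WT CD8 cells (4570 genes, 90 cells). The median over the 7 was 0.07, -0.02, 0.06 and -0.02 in the same pools. The genes set beside the 7 were not matched to them for level or share of positive cells. All 7 lay below the median of all genes in KO CD4, WT CD4 and WT CD8 cells. In KO CD8 cells 6 of 7 did, all but Btg2, and over the alternatives 5 to 7 of 7 lay below it. With each measured gene taken over its own positive cells only, the median rho of all genes was negative in each pool. It was -0.081 in KO CD4, -0.093 in WT CD4, -0.063 in KO CD8 and -0.095 in WT CD8 cells. The difference of mean log2 levels between cells with at least the pool's median of detected genes and cells with fewer gave another order in KO CD8 cells. There its median over the 7 was 0.85, against 0.70 for all genes, while it was -0.21 against 1.02 in KO CD4, 0.22 against 1.14 in WT CD4 and 0.16 against 1.17 in WT CD8 cells. This relation was part of how the genes were chosen, and cells of a pool are not replicates, so rho is a description. Sequencing depth of each cell was not taken into account in it.

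**Figure D4:**
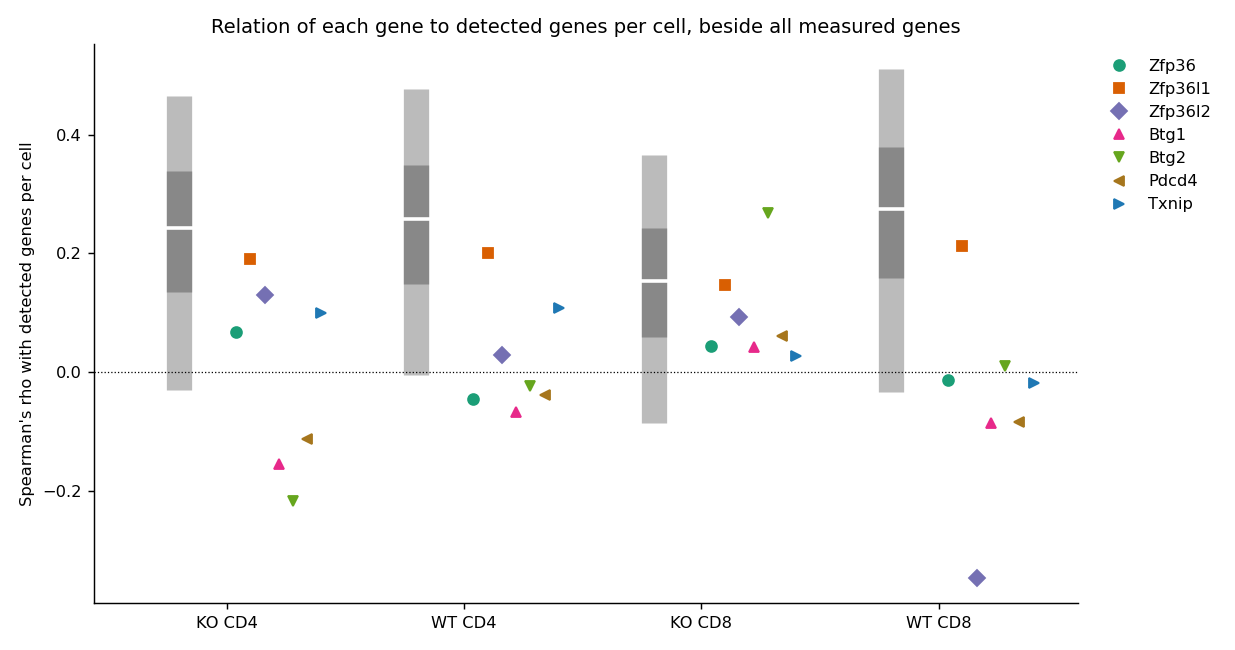
Spearman's rho over cells between each gene's level and the number of detected genes, vertical axis, in the 4 pools; symbols are the 7 genes, the light bar spans the 5th to 95th percentile of all measured genes, the dark bar the 25th to 75th, and the white line is the median. Zfp36l1 lies nearest to the white line in each pool, and Zfp36l2 in WT CD8 cells is lowest at -0.35.

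Zfp36l1 came closest to other genes, with rho of 0.19 in KO CD4, 0.20 in WT CD4, 0.15 in KO CD8 and 0.21 in WT CD8 cells. Zfp36l2 in WT CD8 cells had -0.35, a value below which 0.0656% of measured genes lay. In WT CD8 cells with at least the median of 2148 detected genes, Zfp36l2 averaged 2.67 on the log2 scale and was detected in 60%, against 4.66 and 73.3% in cells with fewer; positive cells had medians of 23.02 and 119.66 FPKM in the same order. In KO CD8 cells Zfp36l2 had rho of 0.09 and averaged 5.30 in the upper and 3.89 in the lower part. Btg2 also differed in sign, with -0.22 in KO CD4 and 0.27 in KO CD8 cells. Btg2 averaged 5.53 in the upper and 7.09 in the lower part of KO CD4 cells, and 7.07 and 5.56 in the same parts of KO CD8 cells.

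**Figure D5:**
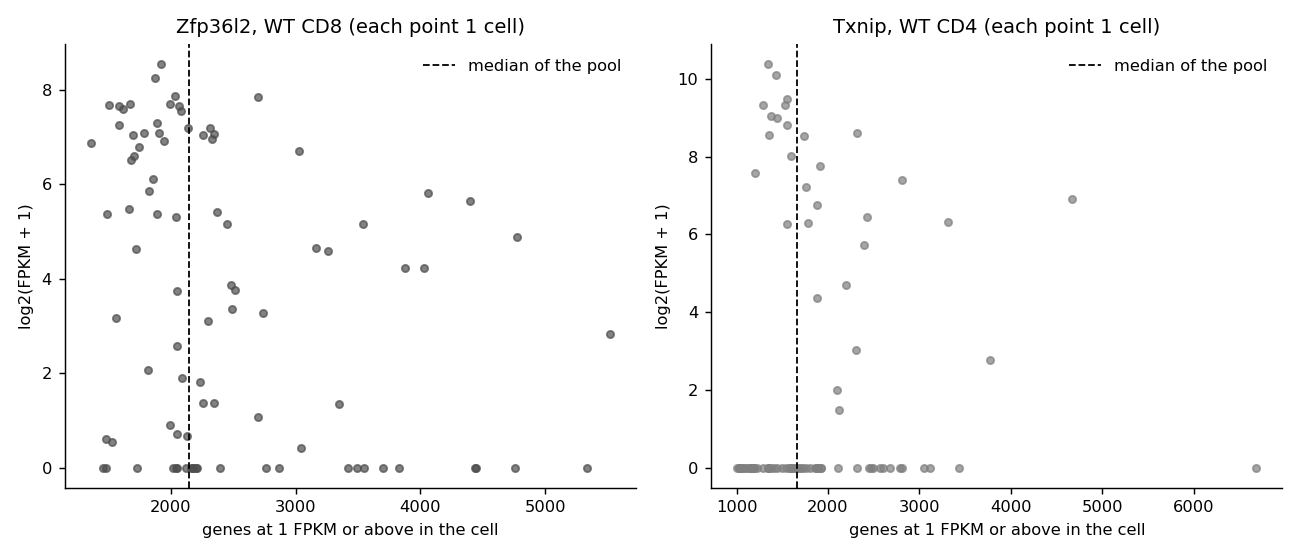
Level as log2(FPKM + 1), vertical axis, against the number of genes at 1 FPKM or above, horizontal axis, for Zfp36l2 in 90 WT CD8 cells (left) and Txnip in 85 WT CD4 cells (right); each point is 1 cell and the dashed line is the pool's median of detected genes. High values of both genes lie mostly to the left of or near the dashed line.

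For Txnip in WT CD4 cells the sign of rho depended on which cells were counted. So did that of the median of all measured genes, 0.26 over all cells and -0.09 over positive cells. In KO CD4 cells Zfp36l1 was likewise at 0.19 over all cells and -0.06 over positive cells. Over all 85 WT CD4 cells rho of Txnip was 0.11. It was detected in 39.5% of cells with at least 1661 detected genes and 28.6% of cells with fewer. Over the 29 cells that held it rho was -0.68, where the median of all measured genes, each over its own positive cells, was -0.09 and the 5th percentile -0.51. Positive cells with at least 1661 detected genes had a median of 79.1 FPKM, and positive cells with fewer had 520.91 FPKM. In KO CD4 cells the same rho was -0.25 over 31 cells, in KO CD8 -0.08 over 52 and in WT CD8 -0.23 over 44.

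Among themselves the 7 genes varied mostly apart. Pearson's r of log2(FPKM + 1) over the cells of a pool, for 21 pairs, had medians of 0.08 in KO CD4, 0.07 in WT CD4, 0.05 in KO CD8 and 0.16 in WT CD8 cells. Pdcd4 and Txnip had the highest mean over the 4 pools, 0.23, with 0.14 in the lowest and 0.32 in the highest pool. Zfp36 and Zfp36l1 reached 0.41 in KO CD8 cells but were at -0.09 in WT CD4 cells, and Zfp36l1 and Zfp36l2 had a mean of -0.04. Such low values in sparse data describe these cells only.

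The genes most like each one were taken by the mean over the 4 pools of the within-pool r, among 2468 genes that 20% of cells held in each pool. For Zfp36 these were Nfkbiz (0.36), the gene of an inhibitor of kappa B family member, and the AP-1 genes Junb (0.31) and Fos (0.29). For Zfp36l1 they were the receptor genes Tigit (0.26) and Ctla4 (0.25) and the centromere gene Cenpa (0.26). Zfp36l2 had the cytokine receptor genes Ifngr1 (0.29) and Il18r1 (0.21) and Tnfaip3 (0.29), which encodes A20, Btg1 had Junb (0.33), Socs3 (0.30) and Vps37b (0.29), and Btg2 had Tnfaip3 (0.34), Ier2 (0.28) and Nr4a1 (0.26). Pdcd4 had Gramd3 (0.36) and Emb (0.27), and Txnip had Pdcd4 itself and Srsf5 (0.20). All of these r values were at most 0.36.

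Of the CCR4-NOT subunits and BTG/TOB relatives, 0 of 11 measured genes reached a difference of 1 or -1 between KO and WT CD4 cells and 0 of 13 between CD8 cells; such differences were reached by 9.91% and 0.983% of all measured genes in CD4 cells, and by 0.555% and 13.3% in CD8 cells. The median of that list was 0.10 in CD4 cells, against 0.23 for all genes, and -0.11 in CD8 cells, against -0.40, with 11 of 13 above the median of all genes. Tob2, an antiproliferative BTG relative, was at 0.71 and Tob1 at 0.49 in CD8 cells, while the subunit Rqcd1 (also called Cnot9) was at -0.88. Of other genes of decapping and exonucleases, 6 of 6 measured were higher in KO CD4 cells, where 66.1% of all measured genes were. The list median was 0.43, against 0.23 for all genes. In KO CD8 cells 5 of 9 were higher, beside 21.3% of all measured genes. The list median there was 0.013, against -0.40, and Exosc10 of the exosome was at -1.37. Among 9 measured genes of further AU-rich and stem-loop binding proteins, the median was 0.03 in CD4 cells, against 0.23 for all genes. In CD8 cells it was -0.19, against -0.40. Zc3h12a, which encodes Regnase-1, was at 0.49 in CD4 and -0.23 in CD8 cells. Elavl1, which encodes HuR, was at 0.42 in CD4 and -0.79 in CD8 cells. Of transcripts with AU-rich elements, 1 of 9 measured was higher in KO CD8 cells, and the list median of -0.65 stood beside -0.40 for all genes; Ifng was at -0.88. In CD4 cells 7 of 8 were higher in KO cells, but 4 of 8 lay above the median of all genes, and the list median was 0.33 against 0.23, with Nfkbia at 2.11 and Icos at 1.15.

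Other quiescence genes were higher in KO CD8 cells for 9 of 13 measured, with a median of 0.43, where 21.3% of all measured genes were higher and their median was -0.40. The transcription factor gene Ets1 was at 1.17 and Tsc22d3, which encodes GILZ, at 1.14. In CD4 cells 10 of 14 were higher in KO cells, a share near the 66.1% of all measured genes, with a median of 0.46 against 0.23; Rbl2, a retinoblastoma relative, was at 1.78, Cdkn1a at 1.02 and Klf6 at -0.88. Beside Txnip, the thioredoxin genes had lower means in KO CD8 cells, Txn1 at -1.71 and Txn2 at -1.81. In CD4 cells Txn1 was at 0.11 and Txn2 at 0.52. Slc2a3, a glucose transporter gene, was at 0.46 in CD4 and -0.56 in CD8 cells. Beside Pdcd4, Eif4a1, which encodes a helicase that PDCD4 binds, was detected in 53.5% of KO and 82.2% of WT CD8 cells, a difference of -1.93, but in 65.2% of KO and 48.2% of WT CD4 cells, a difference of 1.20. Eif4a2, the paralog, was at 0.26 in CD8 cells. Txn1, Eif4a1 and tubulin genes have near-identical copies, so their values are uncertain where reads could be split between copies.

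Immediate early genes, which tissue dissociation can induce, were mostly higher in KO CD4 cells, as Zfp36 and Btg2 were. Of 16 measured, 14 were higher in KO CD4 cells, with a median of 1.09, and 8 reached 1; of all measured genes 66.1% were higher, the median was 0.23 and 9.91% reached 1. Cd69 was at 2.55 and Ier2 at 2.51. In CD8 cells 8 of 16 were higher in KO cells, where 21.3% of all measured genes were. The list median was 0.01, against -0.40 for all genes, with Ppp1r15a at 1.18 and Nr4a2 at -1.02. The part of immediate early genes in the values of Zfp36 and Btg2 was not tested. Cell cycle genes had a median of -0.90 in KO CD8 minus WT CD8, against -0.40 for all genes, with Tuba1b at -2.44. There 1 of 14 was higher, beside 21.3% of all measured genes. In KO CD4 minus WT CD4 the median of cell cycle genes was 0.12, against 0.23.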

How the data were processed

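Single T cells were profiled by Smart-seq2, which makes full-length cDNA from 1 cell. The deposited values are gene-level FPKM, scaled by TMM as the deposited table's own name says; the submitters' processing notes name Bowtie, RSEM and mm10, and versions are not given in the sources used here. Of 375 value columns, 4 match no sample and were not used; 4 rows with repeated symbols were left out. No 2 cells had identical values. Read totals were not used here.

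Each pool was summarised by averaging log2(FPKM + 1) across its cells; such differences understate changes of low genes. Groups came from sample titles. With 1 pool per group, nothing was tested; SDs are over cells, and intervals cover counting error only. The genes, lists and the rule for named genes (the 7 members; the 3 genes with the highest mean r; the 2 highest and 2 lowest of each list, of which some are printed) were chosen with earlier results of these data known. Alternatives changed the cell filter, pseudocount, scale, summary, weighting and cell subsets. The steps were tested on simulated data (Python 3.11.15, pandas 2.3.3, scipy 1.17.1). No doublet caller was used. Among the genes with the highest mean r, one is not reported here.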

Additional observations from a re-analysis of the deposited data

Results flagged for a closer look

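Eif4a1 had a difference of 1.20 between KO and WT CD4 cells but -1.93 between KO and WT CD8 cells, so the sorts went opposite ways past a difference of 1. Cd69 was at 1.91 in KO CD4 minus KO CD8 but at -1.23 in WT CD4 minus WT CD8. Each pool is 1 sample, and neither difference between the contrasts was tested. Between these contrasts of pools, none of the 7 genes went opposite ways past that size. Within the CD8 pools Txnip did, between cells with and without at least 2 of the receptors, at 1.24 in KO and -1.11 in WT cells.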

How the results depend on the processing

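No paired analysis was possible because each pool is 1 sample. The median KO minus WT difference over the 7 genes stayed above 0 under all 10 alternatives, from 0.036 to 0.62 in CD4 and from 0.56 to 1.19 in CD8 cells. In CD4 cells it did not always stay above the median of all measured genes. Without cells with Foxp3 it was 0.036, against 0.21 for all genes. Without cells that carried markers of other cell types it was 0.29, against 0.38. The median of KO CD4 minus KO CD8 was -1.09 with at least 2000 detected genes, against -0.46. That of WT CD4 minus WT CD8 was 0.039 with mean FPKM and -0.016 without cells with Foxp3, against -0.68. Without cells with Foxp3, Zfp36l1 in that comparison was at -0.016, against 1.02. The median rho with detected genes was -0.041 in KO CD4 cells rescaled to an equal total, against 0.07, and -0.088 in KO CD8 cells with at least 2000 detected genes, against 0.06. Among cells with at least 2000 detected genes, Txnip differed by 0.19 between 19 WT CD4 cells with and 6 without Foxp3, against -1.23. The causes were not tested. Of the single-gene differences under all alternatives, 67 moved by over 1.5 times and 2 changed sign after a difference past 1. At about 1 FPKM per fragment, absence of a transcript in a cell is not shown.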
